A study of Mus musculus with 6 samples.

Results

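The matrix metalloproteinase (Mmp), Adamts and Timp genes were followed in mouse hearts that overexpress fatty acid synthase (FASN), the enzyme that builds palmitate. Every gene whose symbol on the array begins with Mmp, Timp or Adamts followed by a number was taken. That gave 37 of the 18193 genes with a probe set of their own: 18 Mmp, 15 Adamts and 4 Timp genes. Each gene was read on its brightest probe set, meaning the group of oligonucleotides that reports a transcript. Of the 37, 23 were bright enough to be tested and 14 were dim, with a mean below the median of all probe sets, which corresponds to a signal of about 47.

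The hearts were from male mice with the strain label C57BL/6J. They formed 3 groups of 2 Affymetrix arrays: a transgenic line with high FASN, a second transgenic line with low FASN, and B6 control hearts matched for age. In both lines the alpha-MHC promoter, a promoter of heart muscle cells, drove FASN, so the transgene is not aimed at the fibroblasts and other stromal cells that make much of the matrix. Each FASN level is 1 line, so its level and anything else that differs between the lines cannot be told apart. The tissue label calls all hearts transgenic, controls included, and the groups follow the titles. No label gives the ages or says whether a group's arrays were of separate hearts. The p-values therefore rest on array-to-array spread alone, and that spread may be technical.

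Matrix metalloproteinases are zinc enzymes that cut collagens, gelatins and other proteins outside the cell. Most are made as inactive precursors and are switched on by removal of a propeptide. Adamts enzymes are related secreted proteases that cut proteoglycans such as versican, trim procollagens or act on other matrix glycoproteins. Timps are small secreted proteins that block the active site of these enzymes. In the heart the balance between proteases and Timps is known for its part in remodelling of the collagen network, and Timp4 is known for its abundance in heart muscle. A transcript level does not report enzyme activity, which depends on activation and inhibition.

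The Fasn probe set followed the labels, at 2268 and 2104 in the high-FASN line, 462 and 481 in the low-FASN line and 213 and 187 in controls. The correlation over tested probe sets was 0.987 to 0.99 within groups and 0.969 to 0.977 between them. All 7 heart muscle markers were tested and bright, led by Myh6 and Tnnt2, so the labelled tissue matched its markers. Signals are in arbitrary units and say nothing of the order of levels between genes, and 2 arrays a group limit the precision. In whole hearts, fewer cells of a type and less RNA per cell cannot be told apart.

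In the high-FASN line 7 of the 23 tested members were higher than in control and 4 were lower, called with limma at an adjusted p below 0.05. As background, 14.4% of all 22519 tested probe sets were called, 8.18% higher and 6.18% lower. With only the brightest probe set of each of 11498 genes it was 16.9%, with 9.97% higher and 6.96% lower. Differences are of log2(signal + 16) and folds are of signal + 16, which understates the change of dim genes. The median log2 difference of the tested members was 0.26, against 0.040 over those genes.

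The low-FASN line had 9 members higher than control and 4 lower. There 24.3% of probe sets were called, 13.5% higher and 10.8% lower, and 27.6% of genes, 14.9% higher and 12.7% lower. The median of the tested members was 0.21, against 0.017 over those genes. Set against each other, the lines differed in 8 members, of which 3 had the higher value with high FASN and 5 the lower. The background was 18.6% of probe sets, 9.69% higher and 8.87% lower, and 20.6% of genes, 11.4% higher and 9.18% lower. These counts and medians cover only members that passed the brightness filter. A gene that is dim in control could pass through the transgenic arrays alone, as Mmp13 and Adamts12 did. Among the members left out, Mmp19 and Mmp7 were brighter in controls than in either line, and Adamts6 was dimmer in controls. The counts and medians are therefore a description.

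The inhibitors moved in opposite directions. Timp1, Timp3 and Timp4 fell in both lines and Timp2 rose in both. Timp4, the inhibitor known for its abundance in heart, read 1447 and 1555 in the high-FASN line, 882 and 941 in the low-FASN line and 3097 and 3132 in controls. No array of one group reached the range of another, and the low-FASN line lay furthest from control. The Timp4 difference from control was a log2 value of -1.05 ± 0.066 (SE) with high FASN (limma adjusted p = 1.33e-05) and -1.76 in the low-FASN line (adjusted p = 4.21e-07), a 2.06-fold and a 3.38-fold lower value. The summed signal of the 7 heart muscle markers was 182270 to 203610 with high FASN, where 5 rose, 147890 to 150490 with low FASN, where 1 fell, and 160500 to 166840 in controls. Over all genes 9.97% were called higher with high FASN and 12.7% lower with low FASN. The part of these markers in the Timp4 result was not tested.

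Timp1, the inhibitor that responds to inflammatory signals in many tissues, read 113 and 144 in the high-FASN line, 150.4 and 189 in the low-FASN line and 301 and 323 in controls. Both lines lay below both control arrays and did not overlap each other, although their distance was small beside the spread within each line. Against control Timp1 stood lower by -1.19 ± 0.168 (SE) in the high-FASN line (limma adjusted p = 0.00176) and, with low FASN, by -0.83 (adjusted p = 0.00657). The low-FASN call was lost without low-FASN array 1 (adjusted p = 0.0627) or control array 2 (adjusted p = 0.0548).

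Timp3 is the Timp that binds to the matrix and also blocks several Adamts enzymes. It read 3276 and 3061 in the high-FASN line, 3694 and 3529 in the low-FASN line and 4949 and 4826 in controls. The arrays kept the order high-FASN line, low-FASN line, control without overlap. Timp3 fell by 0.62 ± 0.057 (SE) in the high-FASN line (limma adjusted p = 0.000133) and, with low FASN, by 0.44 (adjusted p = 0.000601). Its second brightest probe set gave -0.17 in the low-FASN line, which did not pass (adjusted p = 0.157).

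Timp2 takes part in activation of the Mmp2 precursor at the cell surface as well as in inhibition. It read 2390.4 and 2402 in the high-FASN line, 2520 and 2538 in the low-FASN line and 1879 and 1795 in controls. Both lines lay above control. Timp2 rose by 0.38 ± 0.056 (SE) in the high-FASN line (limma adjusted p = 0.00207) and, with low FASN, by 0.46 (adjusted p = 0.000428). The high-FASN call had an adjusted p of 0.0589 without the intensity trend in the variance.

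**Figure D1:**
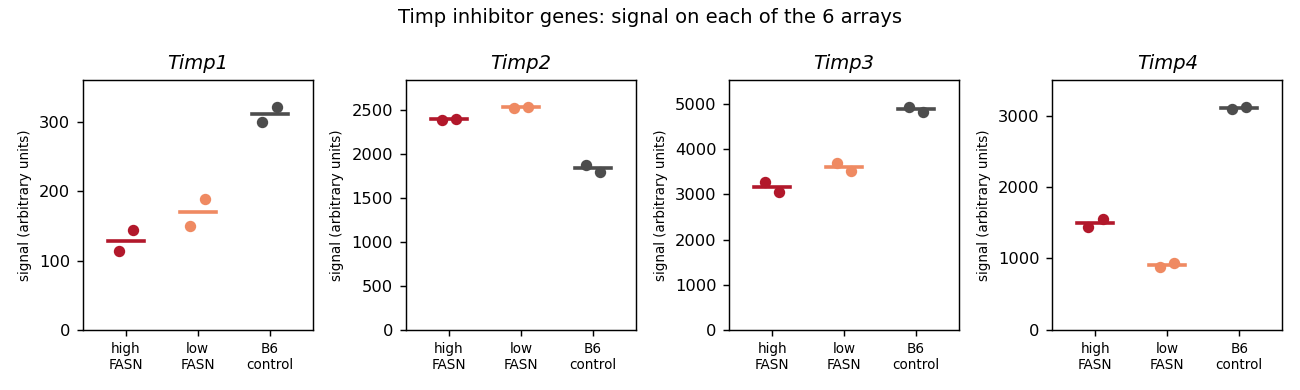
Signal in arbitrary units, on a linear axis from 0, of Timp1, Timp2, Timp3 and Timp4 on each of the 6 arrays. Points are arrays and bars are the means of the 2 arrays of a group; Timp4 averaged 1501 in the high-FASN line, 912 in the low-FASN line and 3115 in control, while Timp2 averaged 2396, 2529 and 1837.

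The bases before the start of the 4 Timp genes and of Mmp13 and Mmp3 are shown because these genes moved in opposite directions within 1 family and, for the latter pair, within 1 gene cluster. Each line gives the 100 bases before the annotated start, 5′ to 3′ on the gene's own strand, from RefSeq on GRCm38.p6. Capitals mark matches on either strand to TGACTCA, the AP-1 motif (its reverse complement is TGAGTCA), to TATAAA, the TATA box, and to GGGCGG, the GC box (its reverse complement is CCGCCC). The places are, in the order shown, chrX:20870066-20870165 (plus strand), chr11:118355412-118355511 (minus), chr10:86300312-86300411 (plus), chr6:115252206-115252305 (minus), chr9:7272414-7272513 (plus) and chr9:7445722-7445821 (plus).
Timp1: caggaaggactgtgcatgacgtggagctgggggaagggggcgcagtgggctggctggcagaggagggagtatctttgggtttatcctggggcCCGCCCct
Timp2: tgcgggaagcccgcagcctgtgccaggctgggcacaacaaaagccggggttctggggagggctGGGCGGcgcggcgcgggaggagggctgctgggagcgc
Timp3: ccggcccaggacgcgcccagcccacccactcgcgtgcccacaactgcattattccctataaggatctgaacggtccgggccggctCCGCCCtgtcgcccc
Timp4: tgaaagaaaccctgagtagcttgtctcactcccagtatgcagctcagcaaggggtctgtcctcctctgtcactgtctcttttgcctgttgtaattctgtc
Mmp13: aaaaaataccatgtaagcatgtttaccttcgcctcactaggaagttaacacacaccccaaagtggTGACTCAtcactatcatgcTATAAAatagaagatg
Mmp3: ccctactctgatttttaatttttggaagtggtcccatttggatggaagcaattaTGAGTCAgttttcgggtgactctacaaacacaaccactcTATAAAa

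Mmp13 and Mmp3 both hold the AP-1 letters and the letters TATAAA. The AP-1 match begins 35 and 46 bases before the annotated start, and the TATAAA match 16 and 7 bases before it. The windows of Timp1, Timp2 and Timp3 hold 1 GC box each, and that of Timp4 holds none of the 3 motifs. Over the full 250 bases before the start, AP-1 was found in 4.46% of all 32851 windows in the table, TATAAA in 12.4% and GGGCGG in 32.7%. Of the 37 members 23 had a window, 26 windows in all, and 7 of these held AP-1, 8 TATAAA and 11 GGGCGG. The 7 with AP-1 were windows of Mmp1a, Mmp1b, Mmp3, Mmp7, Mmp10, Mmp12 and Mmp13, all from the Mmp cluster on chromosome 9. Of these genes only Mmp3 and Mmp13 were bright enough to be tested. Among the 15 windows of tested members 2 held AP-1, 3 TATAAA and 9 GGGCGG. A match describes letters only. In the RefSeq annotation Timp1, Timp4 and Timp3 lie within the genes Syn1, Syn2 and Syn3, which encode synapsins. These names were chosen after their values were seen: Syn1 and Syn3 were dim, and Syn2 read between 101 and 185, with a log2 difference of -0.61 in the high-FASN line (limma adjusted p = 0.0423) and -0.39 in the low-FASN line (adjusted p = 0.134).

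Among the gelatinases, which cut denatured collagen and basement membrane collagen, Mmp2 rose in both lines. It read 892 and 841 in the high-FASN line, 1093 and 1102 in the low-FASN line and 625 and 596 in controls. The groups did not overlap, and the low-FASN line was highest. The rise was 0.49 ± 0.074 (SE) on the log2 scale in the high-FASN line (limma adjusted p = 0.00235) and 0.83 in the low-FASN line (adjusted p = 7.49e-05). A second Mmp2 probe set gave 0.23 in the high-FASN line, which did not pass (adjusted p = 0.101), and 0.67 in the low-FASN line (adjusted p = 0.000447). Mmp9, the gelatinase of neutrophils and macrophages, was close to the brightness filter at 73.0 and 63.6 in the high-FASN line, 61.4 and 59.3 in the low-FASN line and 41.1 and 60.8 in controls. Its differences of 0.35 and 0.21, each with an SE of 0.243, did not pass (limma adjusted p = 0.388 and 0.585).

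Mmp14 anchors in the membrane and activates the Mmp2 precursor. It read 498 and 475 in the high-FASN line, 363 and 383 in the low-FASN line and 402 and 391 in controls. The high-FASN line lay above both other groups. Against control its log2 difference was 0.28 in the high-FASN line and -0.09 in the low-FASN line, and neither passed (limma adjusted p = 0.0795 and 0.56). The other membrane-type members, Mmp16, Mmp17 and Mmp24, read between 29.7 and 75.5 on all arrays, and with limma 0 of the 4 membrane-type genes passed against control in either line. At an unadjusted p below 0.05, 1 did so, Mmp14 in the high-FASN line. Over all genes 16.9% were called with high FASN and 27.6% with low FASN. The 4 genes are too few to set against these shares.

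The tested stromelysins, which cut proteoglycans and glycoproteins and can activate other Mmp precursors, were Mmp3 and Mmp11. Mmp3 read 201 and 154 in the high-FASN line, 107 and 101 in the low-FASN line and 327 and 370.4 in controls. The groups did not overlap, with the low-FASN line lowest. Mmp3 fell by 0.92 ± 0.163 (SE) in the high-FASN line (limma adjusted p = 0.00572) and, with low FASN, by 1.60 (adjusted p = 0.000161), where it was 3.03-fold lower. The high-FASN call was lost without control array 2, at an adjusted p of 0.0627. Mmp11 ranged from 67.0 to 153 and did not pass in either line.

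Mmp13, a collagenase that cuts fibrillar collagen, was the only tested member of its class. It read 69.4 and 99.3 in the high-FASN line, 56.2 and 61.2 in the low-FASN line and a dim 26.8 and 26.4 in controls. Both lines lay above control, and the high-FASN arrays were far apart. The rise was 1.22 ± 0.250 (SE) in the high-FASN line (limma adjusted p = 0.0113) and 0.81 in the low-FASN line (adjusted p = 0.0421). Without the brightness filter the adjusted p was 0.0539 and 0.14, with a pseudocount of 64 the low-FASN value was 0.0621, and leaving out any 1 low-FASN or control array gave 0.124 to 0.178 in the low-FASN line. In the high-FASN line the adjusted p was 0.0587 once high-FASN array 2 was left out, and 0.056 or 0.0621 on leaving out control array 1 or 2. Of 5 markers of cartilage, a tissue known for Mmp13, Col2a1, Acan and Matn1 were dim, with Col2a1 between 2.99 and 19.8 on all arrays. Of the tested pair, Comp rose by 0.48 in the high-FASN line (limma adjusted p = 0.0168) and stood at -0.02 in the low-FASN line (adjusted p = 0.912). Sox9 stood at -0.59 and -0.76, which did not pass (adjusted p = 0.154 and 0.0536). Comp is also the substrate of Adamts7 and Adamts12. The list's summed signal, most of it from Comp, was 693 to 768 in the high-FASN line, 508 to 596 in the low-FASN line and 546 to 587 in controls.

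Mmp13 and Mmp3 lie in the same run of Mmp genes on chromosome 9, with Mmp12 and Mmp1b between them and Mmp1a, Mmp10, Mmp8, Mmp20 and Mmp7 beyond Mmp3. Mmp13 rose and Mmp3 fell, and the other 7 were dim. Mmp23, a membrane-bound member with an unusual structure, read 236 and 225 in the high-FASN line, 213 and 193 in the low-FASN line and 102 and 134 in controls. Both lines lay above control. Mmp23 rose by 0.89 ± 0.163 (SE) in the high-FASN line (limma adjusted p = 0.00672) and, with low FASN, by 0.72 (adjusted p = 0.0111). In the low-FASN line the adjusted p was 0.0871 without low-FASN array 1 and 0.0766 without control array 1. A second Mmp23 probe set gave 0.64 and 0.39, which did not pass (adjusted p = 0.104 and 0.259).

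**Figure D2:**
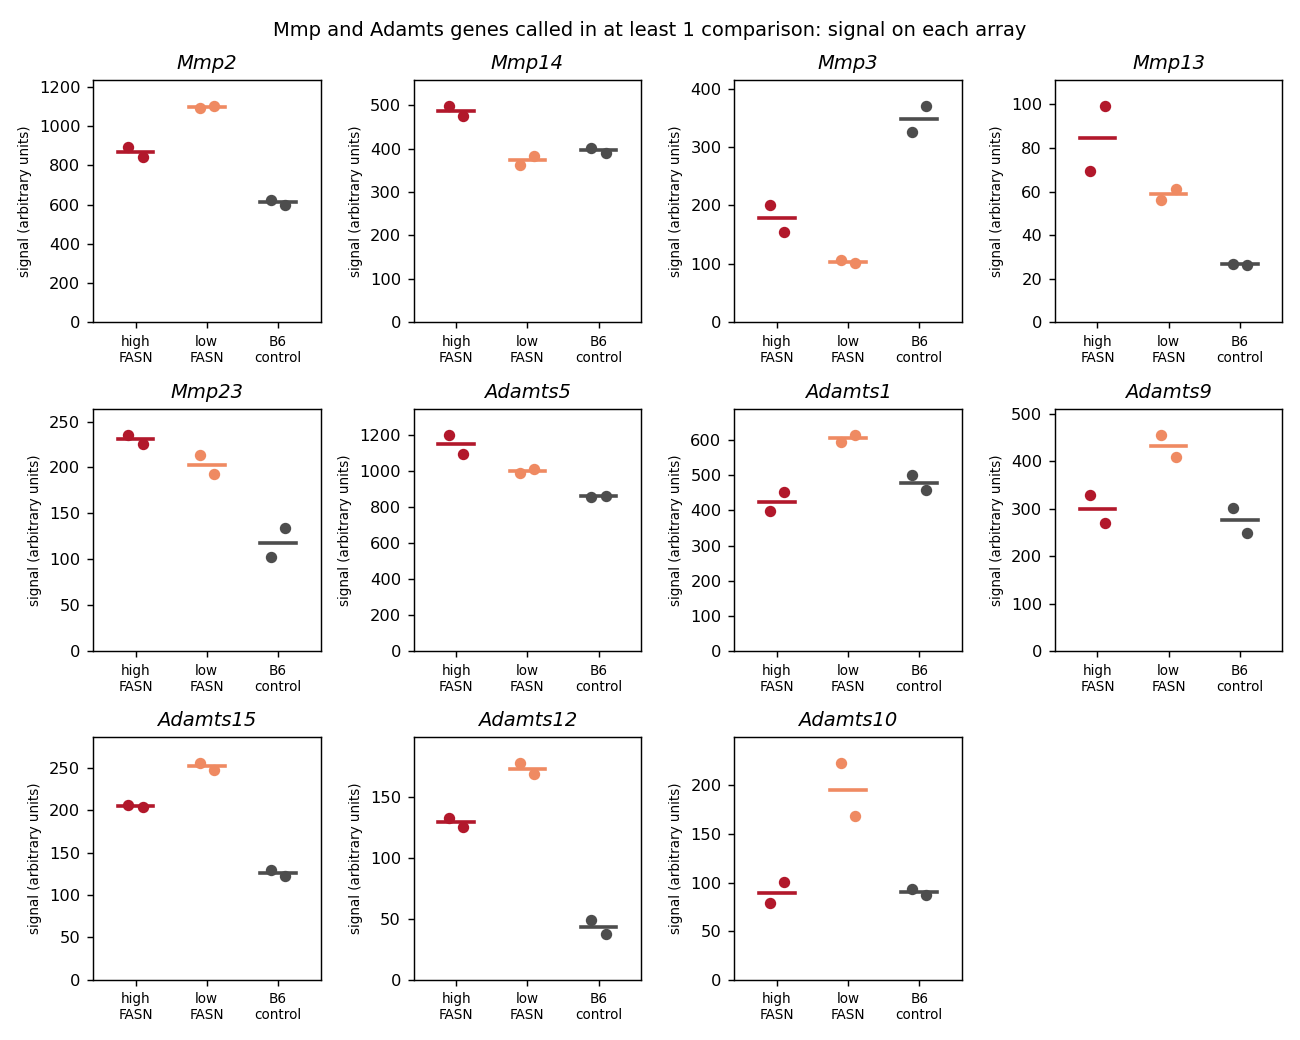
Signal in arbitrary units, on linear axes from 0, of the 11 Mmp and Adamts genes called in at least 1 of the 3 comparisons. Points are arrays and bars are group means of 2 arrays; Mmp3 lies below control in both lines, Mmp2, Mmp13, Mmp23, Adamts12 and Adamts15 lie above it, and Adamts1, Adamts9 and Adamts10 stand highest in the low-FASN line.

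Among 9 tested Adamts genes 3 rose in the high-FASN line and 5 in the low-FASN line, and with limma 0 fell in either (also 0 at an unadjusted p below 0.05). Over all genes 9.97% were called higher and 6.96% lower with high FASN, and 14.9% higher and 12.7% lower with low FASN. With 9 genes tested, the 0 falls cannot be set apart from those shares. The hyalectanases, which cut versican and aggrecan, gave 2 and 3 of these rises among 4 tested, too few genes to set against those shares. Adamts15 read 207 and 204 in the high-FASN line, 256 and 248 in the low-FASN line and 129.6 and 122 in controls. Both lines lay above control, the low-FASN line highest. It rose by 0.64 ± 0.136 (SE) in the high-FASN line (limma adjusted p = 0.0132) and, with low FASN, by 0.92 (adjusted p = 0.00129). The high-FASN call was lost without control array 1 (adjusted p = 0.0508) and without control array 2 (adjusted p = 0.0771).

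Adamts5, a main aggrecan-cutting enzyme, read 1203 and 1095 in the high-FASN line, 987 and 1011 in the low-FASN line and 856 and 864 in controls. The 3 groups did not overlap, the high-FASN line being highest. It rose by 0.41 ± 0.073 (SE) in the high-FASN line (limma adjusted p = 0.0059). The low-FASN difference of 0.21 did not pass (adjusted p = 0.0629) and passed in 5 of 18 alternatives. Without the intensity trend the high-FASN adjusted p was 0.0625. The second brightest probe set gave 0.24 in the high-FASN line (adjusted p = 0.157) and 0.45 in the low-FASN line (adjusted p = 0.0115).

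Adamts1 and Adamts9 rose in the low-FASN line. Adamts9, a versican-cutting enzyme made in the developing heart and vessels, read 328 and 269.9 in the high-FASN line, 456 and 408 in the low-FASN line and 301 and 249 in controls. The high-FASN line overlapped control and the low-FASN line lay above both. Adamts9 rose by 0.63 ± 0.139 (SE) in the low-FASN line (limma adjusted p = 0.00975), and its high-FASN difference of 0.11 did not pass (adjusted p = 0.643). Adamts1 read 398 and 452 in the high-FASN line, 596 and 616 in the low-FASN line and 499.6 and 458 in controls. It rose by 0.33 in the low-FASN line (adjusted p = 0.0376), while its high-FASN difference of -0.17 did not pass (adjusted p = 0.299).

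Both low-FASN calls were fragile. For Adamts9 the adjusted p was 0.0861 without low-FASN array 1 and 0.0783 without control array 2. For Adamts1 it was 0.0733 to 0.193 when any 1 low-FASN or control array was left out, 0.0707 with quantile normalization, 0.0689 with cyclic loess, 0.0668 without the filter and 0.0869 without the intensity trend.

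Adamts12, which cuts cartilage oligomeric matrix protein, rose in both lines. It read 133 and 126 in the high-FASN line, 178 and 169 in the low-FASN line and a dim 49.5 and 37.2 in controls. The groups did not overlap. The rise was 1.30 ± 0.192 (SE) in the high-FASN line (limma adjusted p = 0.00211) and 1.69 in the low-FASN line (adjusted p = 0.000292). Adamts12 passed the filter through the transgenic arrays alone, and with all probe sets tested the limma adjusted p was 0.00976 and 0.00166. Adamts7, which shares that substrate, stood between 52.3 and 77.1 on all arrays and did not pass.

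Adamts10, a partner of fibrillin microfibrils, read 78.5 and 100.6 in the high-FASN line, 223 and 168 in the low-FASN line and 93.4 and 86.8 in controls. The high-FASN line overlapped control, and the low-FASN line stood apart with a wide spread. Adamts10 rose by 0.98 ± 0.202 (SE) in the low-FASN line (limma adjusted p = 0.00668, and 0.0763 without low-FASN array 1), and the high-FASN difference was -0.01 (adjusted p = 0.974). Adamts3, a procollagen-trimming enzyme, ranged from 116 to 167 and did not pass. Adamts16 read 37.3 and 136 in the high-FASN line against 110.2 and 142 in controls, and it did not pass (adjusted p = 0.325), although without high-FASN array 2 it was called at -1.41 (adjusted p = 0.00547).

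**Figure D3:**
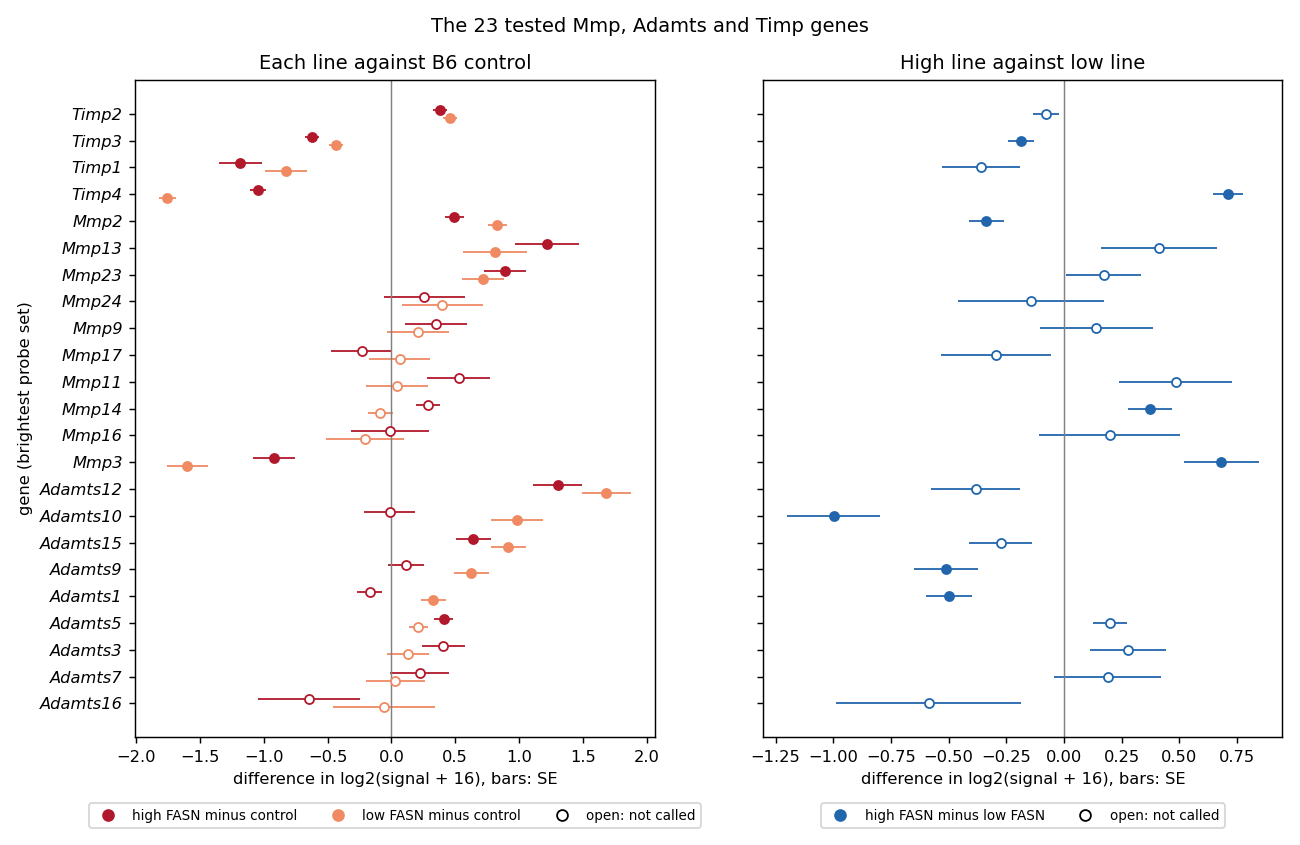
Difference in log2(signal + 16) of the 23 tested genes, each line against B6 control on the left and the high-FASN line against the low-FASN line on the right, with bars for the SE. Filled points passed at an adjusted p below 0.05. Timp1, Timp3, Timp4 and Mmp3 lie left of 0 in both lines. Timp2, Mmp2, Mmp23, Adamts15, Adamts12 and Mmp13 lie right of it. Adamts12 and Mmp13 passed the brightness filter through the transgenic arrays alone.

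The lines were compared directly to ask where the 2 FASN levels differed. In the high-FASN line Timp4 exceeded its value in the low-FASN line by 0.71 ± 0.066 (SE, limma adjusted p = 0.000212), Mmp3 by 0.68 (adjusted p = 0.0189) and Mmp14 by 0.37 (adjusted p = 0.0253). For Timp4 and Mmp3 this means a value nearer to control in the line with more FASN. Lower in the high-FASN line were Adamts10 at -0.999 (adjusted p = 0.009), Adamts9 at -0.51 (adjusted p = 0.031), Adamts1 at -0.50 (adjusted p = 0.0083), Mmp2 at -0.34 (adjusted p = 0.0132) and Timp3 at -0.19 (adjusted p = 0.046).

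Of these 8 differences, that of Timp4 kept its call in all 18 alternatives. Without the intensity trend 6 of the others were lost, Adamts10 being the exception, with adjusted p from 0.0535 for Adamts1 to 0.21 for Timp3. Without low-FASN array 1 the other 7 were lost, with adjusted p from 0.0553 for Adamts1 to 0.263 for Timp3. Without low-FASN array 2, 6 of them were lost, again all but Adamts10, with adjusted p from 0.0719 for Adamts1 to 0.128 for Timp3. Without high-FASN array 1 the calls of Mmp3 (adjusted p = 0.0899) and Mmp14 (adjusted p = 0.0888) were lost, and without high-FASN array 2 those of Adamts9 (adjusted p = 0.117) and Timp3 (adjusted p = 0.116). Adamts9 was also lost without the filter (adjusted p = 0.066). Timp3 lost its call with median centring (adjusted p = 0.0916), without the filter (adjusted p = 0.0982), with the 4 arrays compared alone (adjusted p = 0.0771) and without control array 1 (adjusted p = 0.0758) or control array 2 (adjusted p = 0.076).

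Several members have more than 1 tested probe set, which read different stretches of the same transcript. In the high-FASN line 6 called members had 12 further tested probe sets; all 12 had the same sign as the brightest one and 6 were called. In the low-FASN line the counts were 12 of 12 with the same sign and 9 called. For Timp2 all 5 tested probe sets were positive, from 0.30 to 0.54 in the high-FASN line and from 0.31 to 0.64 in the low-FASN line. For Timp3 all 4 were negative, from -0.82 to -0.46 and from -0.73 to -0.17, and the second Timp4 probe set gave -0.73 and -1.41. Between the lines 7 of 8 further probe sets had the same sign; the exception was Mmp14, whose dimmer probe set gave -0.45 (limma adjusted p = 0.265) against 0.37. The second brightest Adamts9 probe set gave 1.07 in the low-FASN line (adjusted p = 0.00289) and -1.32 between the lines (adjusted p = 0.00165), larger than the brightest one. A dimmer Adamts9 probe set gave 0.29 and -0.37, which did not pass (limma adjusted p = 0.449 and 0.365).

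**Figure D4:**
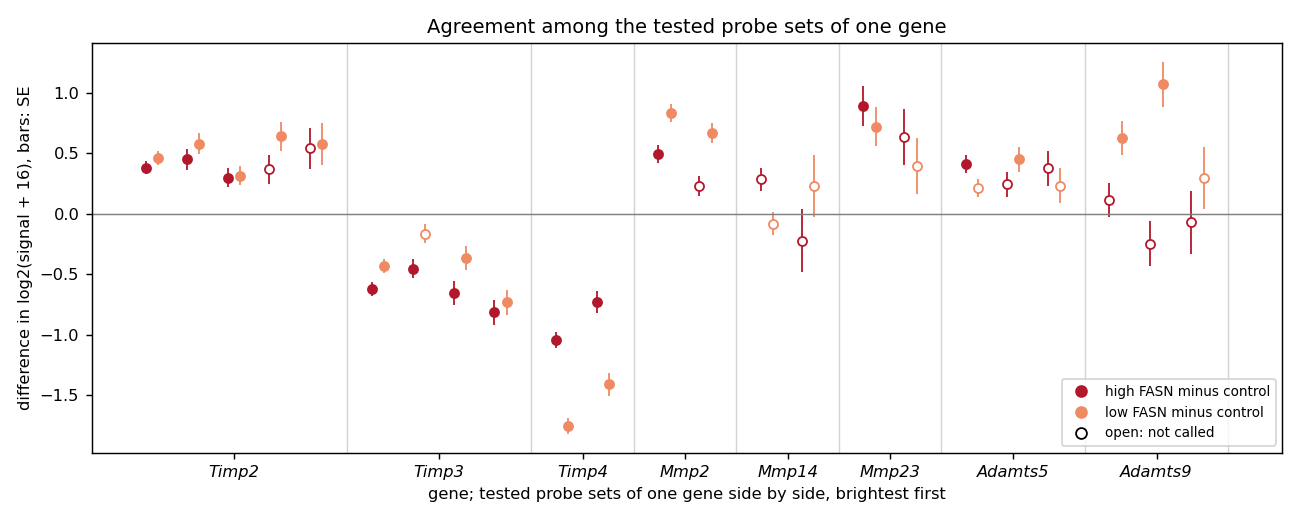
Difference in log2(signal + 16) from B6 control for each tested probe set of 8 genes with more than 1, brightest first, with bars for the SE and open points for differences that did not pass. The 5 Timp2 probe sets lie above 0 and the 4 Timp3 and 2 Timp4 probe sets below 0 in both lines, while the Mmp14 probe sets lie on both sides.

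The 14 dim members were Mmp1a, Mmp1b, Mmp7, Mmp8, Mmp10, Mmp12, Mmp19, Mmp20, Adamts4, Adamts6, Adamts8, Adamts18, Adamts19 and Adamts20. Nearest to the filter were Mmp24 just inside, at a mean of 6.02 on the log2(signal + 16) scale, and Adamts6 just outside, at 5.96, around the limit of 5.98. Mmp19 was low in the lines and brighter in controls: it read 25.02 and 18.3 in the high-FASN line, 27.3 and 6.32 in the low-FASN line and 93.2 and 74.8 in controls. Its second probe set read 2.03 to 18.5 in the lines and 63.7 and 73.0 in controls. With all probe sets tested, Mmp19 was lower in the low-FASN line by -1.68 (limma adjusted p = 0.0329) and stood at -1.41 in the high-FASN line (adjusted p = 0.0921). Mmp7, which cuts many matrix and surface proteins, read 21.3 and 9.32 in the high-FASN line, 37.0 and 29.7 in the low-FASN line and 50.5 and 61.3 in controls, and did not pass (adjusted p = 0.0904 and 0.431). Adamts6 read 29.9 and 68.4, 77.4 and 83.3, and 24.8 and 23.5 in the same order and did not pass (adjusted p = 0.421 and 0.0666). Mmp1a and Mmp1b are close copies whose probe sets may share transcripts, and both stayed at or below 18.0.

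Regulators of these enzymes were read as a list of 40 genes, of which 38 were on the array and 33 were tested. In the high-FASN line 5 rose and 2 fell, with a median log2 difference of 0.14, and in the low-FASN line 8 rose and 3 fell, with a median of 0.15. That is 21.2% and 33.3% of the tested regulators called, near the 16.9% and 27.6% over all genes, so the counts do not set the list apart. Thbs2, a matrix protein that promotes clearance of Mmp2, rose from 264 ± 29.4 (SD, n = 2) in controls to 474 ± 0.689 in the high-FASN line and 500.1 ± 25.7 in the low-FASN line (limma adjusted p = 0.00129 and 0.000447). Pcolce2, an enhancer of procollagen trimming, rose by 0.34 and 0.53 (adjusted p = 0.00622 and 0.000309), and the membrane protease gene Adam19 by 0.59 and 0.85 (adjusted p = 0.0121 and 0.00111). Adamtsl2, an Adamts-like protein without a protease domain, rose by 0.54 in the high-FASN line and 0.87 in the low-FASN line. Bsg, a surface protein known to induce Mmp expression, fell by 0.39 and 0.30 (adjusted p = 0.00166 and 0.00373), and Adam9 fell by 0.37 in the high-FASN line (adjusted p = 0.00284). Reck, a membrane-anchored Mmp inhibitor, rose by 0.47 in the low-FASN line (adjusted p = 0.012) and stood at 0.17 in the high-FASN line (adjusted p = 0.347). Between the lines 2 regulators were higher with high FASN and 1 lower, 9.09% of those tested against 20.6% over all genes. Ctsb, a lysosomal cathepsin, was higher in the high-FASN line by 0.42 (adjusted p = 0.00154) and Furin, which activates membrane-type Mmps, by 0.44 (adjusted p = 0.0279), while Adam9 was lower at -0.24 (adjusted p = 0.0191).

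Of 31 substrate genes 27 were tested, and 19 rose and 1 fell in the high-FASN line, against 18 and 2 in the low-FASN line, with medians of 0.56 and 0.69. The called share was 74.1% in each line, against 16.9% and 27.6% over all genes. The substrate list was chosen with earlier results of these data known, so this share is a description and not a test. Col3a1, a fibrillar collagen gene, read 10461 and 9809 in the high-FASN line, 13174 and 13571 in the low-FASN line and 3941 and 4179 in controls. It rose by 1.32 and 1.72 (limma adjusted p = 7.43e-07 and 1.39e-07). Eln, the elastin gene, rose by 1.18 and 2.19 (adjusted p = 8.4e-05 and 1.52e-06), and Col1a2 by 0.80 and 0.93. Between the lines 7 substrates were higher with high FASN and 9 lower, Bgn being higher by 0.61 (adjusted p = 0.000246) and Eln lower by -1.01 (adjusted p = 0.000281). That is 59.3% of the tested substrates, against 20.6% over all genes, with 11.4% higher and 9.18% lower. This share, too, is a description. The falls against control were of substrates other than fibrillar collagens. Vcan, the versican gene, fell by 0.40 in the high-FASN line (limma adjusted p = 0.0117) and stood at 0.08 in the low-FASN line (adjusted p = 0.537), while Vwf fell by 0.55 in the low-FASN line (adjusted p = 0.00097). Hspg2, the perlecan gene, fell by 0.52 there (adjusted p = 0.00244).

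Markers of other cell types were read as lists, some of which moved in both lines and some of which split. As background, 9.97% of all genes were called higher and 6.96% lower with high FASN. With low FASN it was 14.9% and 12.7%. The lists hold too few genes to set against these shares, so their counts are a description. The 7 fibroblast markers, led by Dcn and Lum, had 4 rises in the high-FASN line and 5 in the low-FASN line. Their summed signal was 29515 to 29901 with high FASN, 27156 to 28362 with low FASN and 25825 to 26733 in controls. The 4 smooth muscle markers, led by Acta2 and Tagln, all rose in both lines, with sums of 11173 to 11437, 11074 to 11380 and 5017 to 5196. Of 5 endothelial markers, led by Kdr and Cdh5, 3 rose with high FASN and 2 with low FASN, and the sums were 5268 to 5397, 4999 to 5275 and 4204 to 4272. Of 4 mesothelial markers, led by Upk3b and Lrrn4, 2 and 3 rose, with sums of 1076 to 1087, 1205 to 1271 and 568 to 625. All 3 adipocyte markers on the array rose in both lines, Adipoq and Ucp1 being brightest, with sums of 4136 to 4504, 1966 to 2006 and 127 to 186.

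The macrophage, neutrophil and airway lists were mixed in at least 1 line. For these lists and the lymphocyte list, too, the shares over all genes given above are the background. Of 6 macrophage markers, led by Lyz2 and Csf1r, 2 fell with high FASN, while 2 rose and 1 fell with low FASN. Their sums were 10132 to 10258 in the high-FASN line, 12246 to 12623 in the low-FASN line and 10861 to 10963 in controls. Of 4 tested neutrophil markers 1 rose and 2 fell with high FASN, and 2 fell with low FASN. The neutrophil sums, led by S100a8 and S100a9, were 302 to 313, 209 to 218 and 345 to 433. All 3 tested lymphocyte markers rose in both lines, with sums of 536 to 548, 2245 to 2285 and 109 to 194, led by Ighm and Jchain. Of 5 airway markers 4 rose with high FASN, led by Scgb1a1 and Bpifa1, and 1, Scgb1a1, rose with low FASN, where the list's median was -0.11. The airway sums were 3010.4 to 3206, 218 to 254 and 139 to 186. The part of these cell types in the member differences was not tested.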

How the data were processed

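Each deposited value is an intensity on a linear scale for 1 probe set on 1 array. GCOS, Affymetrix software, is the tool that the submitters' processing notes list; no version, algorithm or scaling target is given in the sources used here. The 2% trimmed means of the deposited intensity columns differed by 5.44e-05%, below the 10% set as the limit for rescaling, so they were kept. Of 45101 probe sets 64 controls were set aside. Gene names came from GEO's platform annotation (34945 probe sets with 1 symbol, 932 with several and 9160 with none); 0 symbols altered on updating through the RefSeq genes of GRCm38.p6.

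Values were analysed as log2(signal + 16), which understates changes of dim genes, in R 4.3.3 with limma 3.58.1. Probe sets at or above the median brightness (22519) entered 1 model with 3 group means (lmFit, eBayes with trend; 3 residual and 6.43 prior degrees of freedom). Tests are two-sided, and p-values are Benjamini-Hochberg adjusted over all of them. The model was tested on simulated data. Alternatives covered normalization, pseudocount (1 and 64), filter, variance model, arrays in the fit, the replicate number as a block, the probe set chosen and each array left out.

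The members, lists and named genes were chosen with earlier results of these data known. Arrays are given in full for each member called in a comparison and for Timp1 to Timp4, Mmp2, Mmp9 and Mmp14. From each of the regulator and substrate lists, names are among the 5 smallest p of a comparison, from each marker list the 2 brightest. Vcan, Vwf, Hspg2, Comp, the cartilage markers, the dim members' values and the Syn genes were chosen after their values were seen. Plots came from matplotlib 3.10.9 (Python 3.11.15).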

Additional observations from a re-analysis of the deposited data

Results flagged for a closer look

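For 8 members the difference from control was not the same in both transgenic lines, by the direct test of the high line against the low line (limma, adjusted over all tested probe sets). On the log2 scale the high line was higher for Timp4 by 0.71, for Mmp3 by 0.68 and for Mmp14 by 0.37. It was lower for Adamts10 at -0.999, Adamts9 at -0.51, Adamts1 at -0.50, Mmp2 at -0.34 and Timp3 at -0.19. Of these, Timp4 alone kept its call in all alternatives. Mmp14 passed against control in neither line, and its second brightest probe set had the opposite sign between the lines. The 2 arrays of a group are too few to look for a single array that stands apart.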

How the results depend on the processing

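The members had 32 called differences over the 3 comparisons. On the same probe set 14 kept their call in all alternatives, 18 lost it in at least 1, and 0 changed direction. Counts below are for the high-FASN line against control, the low-FASN line against control and the high-FASN against the low-FASN line. Called probe sets were 3234, 5475 and 4179, and 1233, 3576 and 1449 without the intensity trend. With 1 probe set per gene, and so fewer tests, they were 2198, 3449 and 2609. With 1 array left out they ranged over 1398 to 3493, 2897 to 6476 and 1553 to 4158; the high-FASN count fell to 1618 without control array 1 and 1398 without control array 2, the low-FASN count to 2897, 2924, 3392 and 3227 without low-FASN array 1 or 2 or control array 1 or 2, and the count between the lines to 1575 and 1553 without low-FASN array 1 or 2.

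Members called higher and lower were 7 and 4, 9 and 4, and 3 and 5. With a filter at the 75th percentile, where fewer members are tested, they were 3 and 2, 5 and 2, and 2 and 4. Between the lines 3 were lower without a filter, and 1 higher and 1 lower without the intensity trend. With 1 array left out the members higher ranged over 5 to 7, 4 to 10 and 1 to 4, and those lower over 3 to 5, 3 to 4 and 0 to 5. The 4 rises in the low-FASN line and the 0 came without low-FASN array 1; there limma found 5 members lower between the lines at an unadjusted p below 0.05.

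The direction turned for 1 called difference, that of Mmp14 between the lines on its second brightest probe set; the other turns were of differences that were not called. On the second brightest probe set Adamts9 was -0.25 in the high-FASN line, Mmp14 was -0.22, 0.23 and -0.45 in the 3 comparisons, and Adamts5 was -0.21 between the lines. In the low-FASN line Mmp11 was -0.025 with quantile normalization and -0.013 with cyclic loess, and Adamts7 -0.0027 and -0.0044. With 1 array left out the high-FASN difference ranged from -0.17 to 0.14 for Adamts10, -1.41 to 0.11 for Adamts16, -0.019 to 0.25 for Adamts9, -0.21 to 0.20 for Mmp16 and -0.21 to 0.72 for Mmp24. The low-FASN difference ranged from -0.22 to 0.10 for Adamts16, -0.12 to 0.18 for Adamts7, -0.21 to 0.30 for Mmp11, -0.58 to 0.16 for Mmp16, -0.057 to 0.19 for Mmp17 and -0.0081 to 0.42 for Mmp9. Between the lines it ranged from -1.34 to 0.17 for Adamts16, -0.17 to 0.57 for Mmp16 and -0.60 to 0.32 for Mmp24. Beyond fewer tests or arrays, the cause was not tested.

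Arrays sharing a replicate number did not deviate together over all tested probe sets (correlations 0.0396, 0.0273 and 0.000398). A factor shared on some probe sets only was not tested. With the replicate number as a block 3392, 5647 and 4325 probe sets were called, and the members' counts were as without it, 7 and 4, 9 and 4, and 3 and 5. Members near the brightness limit are measured least precisely, and 2 arrays a group limit every value.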
